A study of Mus musculus with 24 samples.

Results

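Forkhead genes code for transcription factors that share a winged helix domain, through which they bind DNA. In the lung, FOXA1 and FOXA2 open chromatin at epithelial genes, FOXF1, FOXF2, FOXC1, FOXC2 and FOXL1 act in mesenchyme, vessels and pericytes, and FOXM1 drives genes of the G2 and M phases of the cell cycle. FOXO proteins are kept out of the nucleus by insulin signalling and enter it under oxidative stress, where they switch on genes of antioxidant defence, cell cycle arrest and autophagy.

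The members were the genes that the array names Fox, a letter from a to s and a number, without Foxj1, and they numbered 42 of the 34832 genes or unnamed probes on the array. A gene with several probes was represented by the probe with the highest mean signal over the 24 arrays, so the probes of 13 of the 42 genes were chosen by their measured level, while 29 genes had 1 probe. Foxc2 and Foxm1 were named in advance because earlier results of these data were known, so their values describe these samples and are not independent evidence. The array names Foxf1 as Foxf1a, which the naming rule left out, and its values are given beside those of Foxf2.

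Total RNA came from primary mouse alveolar type II cells, the surfactant-making cells of the lung, grown as a monolayer at an air-liquid interface over 3 days and measured on 1-colour Agilent arrays. In the GYY4137 experiment (8 arrays), cells received GYY4137, a compound that releases hydrogen sulfide (H2S) slowly, at 100 µM for 24 h in 85% or in 21% O2, and cells without GYY4137 were not analysed here. In the NaHS experiment (16 arrays), cells received NaHS, a salt that releases H2S quickly, at 100 µM for 24 h or 6 h, or the vehicle, the culture medium DMEM, for 24 h or 6 h. The labels give no genotype, strain, sex or age. Each of the 6 groups held 4 arrays, and whether the 4 came from different cultures or mice is not given in the labels, so p-values measure only the spread between arrays, which may be technical.

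Between 54.8% and 77.5% of probes lay well above background on an array, with 54.8% to 57.2% on slide 1 and 67.7% to 73.9% on slide 2, and in the NaHS experiment every group was split evenly over slides 1 and 2. All 85% O2 arrays lay on slide 4 and all 21% O2 arrays on slide 3, so slide and oxygen level cannot be told apart, and neither can time and array row, since all 24 h arrays lay in row 2 and all 6 h arrays in row 1. Of 12 alveolar type II markers, 9 or 10 were above background on all 4 arrays of each group. Slc34a2, the phosphate transporter of these cells, was above background on no array of 5 groups. Fibroblast markers were above background on all 4 arrays of every group for at least 11 of 12 genes, and smooth muscle markers for 10 of 10.

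Levels below are log2 signals relative to the 75th percentile of the same array, so 0 is that percentile and a difference of 1 is 2-fold. They compare 1 gene between arrays and do not rank genes against each other, because probes differ in brightness. Of the 42 genes, 31 were above background on all 24 arrays, 9 on some arrays, and Foxd3 and Foxr2 on none. Each gene was given a single role, which is a coarse sorting. For example, Foxl2, best known from the ovary, stands under mesenchyme, and Foxj3, known from muscle, under insulin and stress signalling. By role, the genes above background on all arrays were 9 of 12 epithelial genes and 7 of 8 of mesenchyme, vessel and pericyte. They were 3 of 6 of the cell cycle group, 7 of 8 of insulin and stress signalling and 5 of 8 of embryo, nerve and immune cells. In each experiment 37 genes were tested with limma, and a gene was called where the p adjusted over all genes tested was under 0.05.

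**Figure D1:**
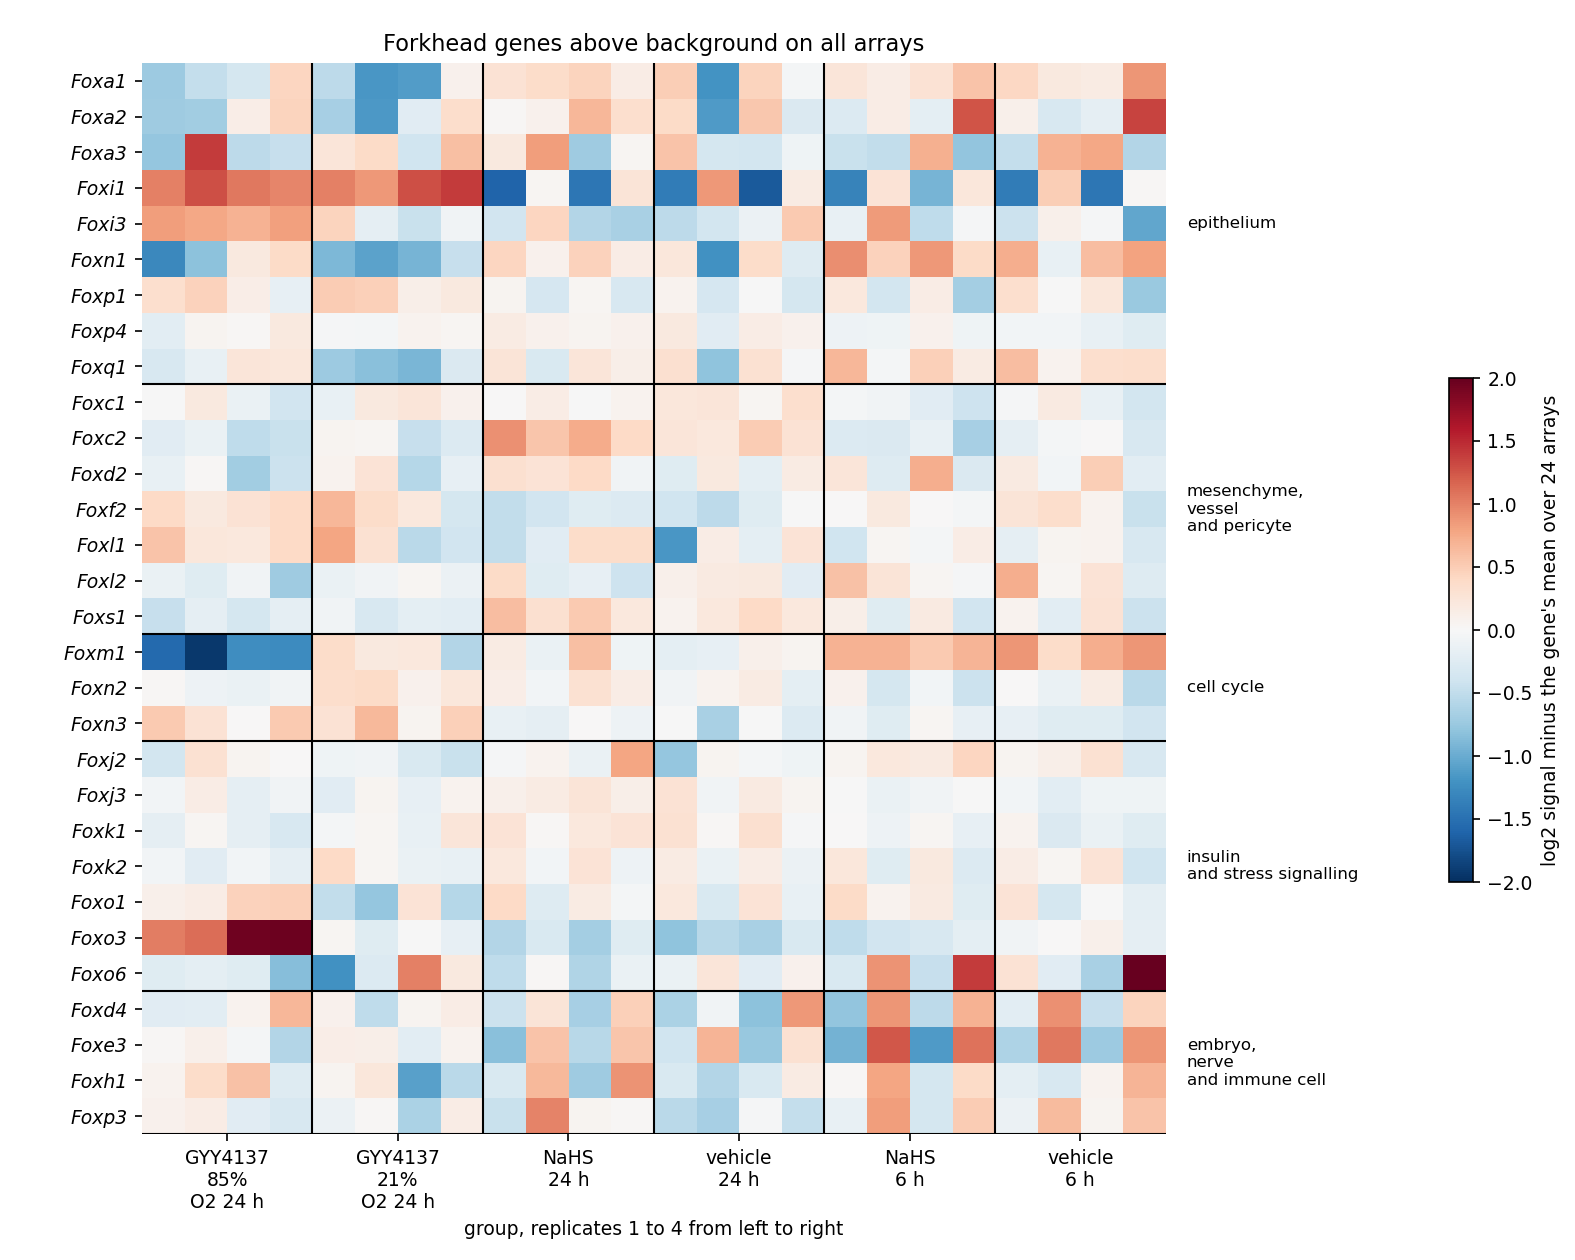
Log2 signal of 30 of the 31 forkhead genes above background on all arrays, each minus its own mean over 24 arrays, with genes in rows by role and the 4 replicates of each group side by side in columns. Foxm1 is low and Foxo3 is high on all 4 arrays of GYY4137 in 85% O2, Foxc2 is high on the 4 arrays of NaHS at 24 h, and Foxi1, Foxe3 and Foxd4 alternate with the slide in the NaHS experiment.

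Oxygen level was the comparison with the most calls. In 85% against 21% O2 with GYY4137, Foxo3, Foxi3 and Foxq1 were higher and Foxm1 was lower, 4 of 37 genes or 10.8%, against 17.1% of all genes tested. The forkhead genes were thus called at a rate not above that of the array as a whole, and their median difference was 0.0023 against 0.06 for all genes. The values of the 2 groups did not overlap for Foxo3, Foxi3, Foxm1 and Foxn2, 4 of 37 genes against 23.9% of all genes tested.

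Time in culture gave 1 call in each treatment. At 24 h against 6 h in vehicle, Foxm1 was lower, 1 of 37 genes or 2.7%, against 1.16% of all genes tested, and the groups did not overlap for 3 members, Foxm1, Foxo3 and Foxc2, against 7.5% of all genes. At 24 h against 6 h in NaHS, Foxc2 was higher, again 1 of 37, against 0.0405% of all genes tested, which is 11 genes, with 0.0331% called higher and 0.00736% lower. The groups did not overlap there for Foxc2, Foxf2, Foxs1, Foxc1 and Foxj3, against 6.27% of all genes. With the replicate number as a block, 3 genes were called in vehicle (against 3.89% of all genes) and 1 in NaHS (against 0.21%), and with the slide as a block 4 genes in vehicle (against 3.21%) and 1 in NaHS (against 0.173%).

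NaHS against vehicle gave 0 calls by limma at 6 h and at 24 h, against 0.0% of all genes tested at both times. At an unadjusted p under 0.05, 2 forkhead genes and 154 of 27176 genes differed at 6 h. At 24 h, 1 forkhead gene and 604 of 27176 genes did. With the slide as a block these were 2 forkhead genes and 467 genes at 6 h. At 24 h they were 4 forkhead genes and 2278 genes, with 0 calls at both times. The NaHS effect at 24 h against that at 6 h also gave 0 calls, with 3 forkhead genes and 296 of all genes at an unadjusted p under 0.05. The 95% intervals of 24 of 37 genes at 6 h and 21 of 37 at 24 h lay within a 2-fold difference in either direction. For the rest the interval reached past 2-fold in at least 1 direction.

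**Figure D2:**
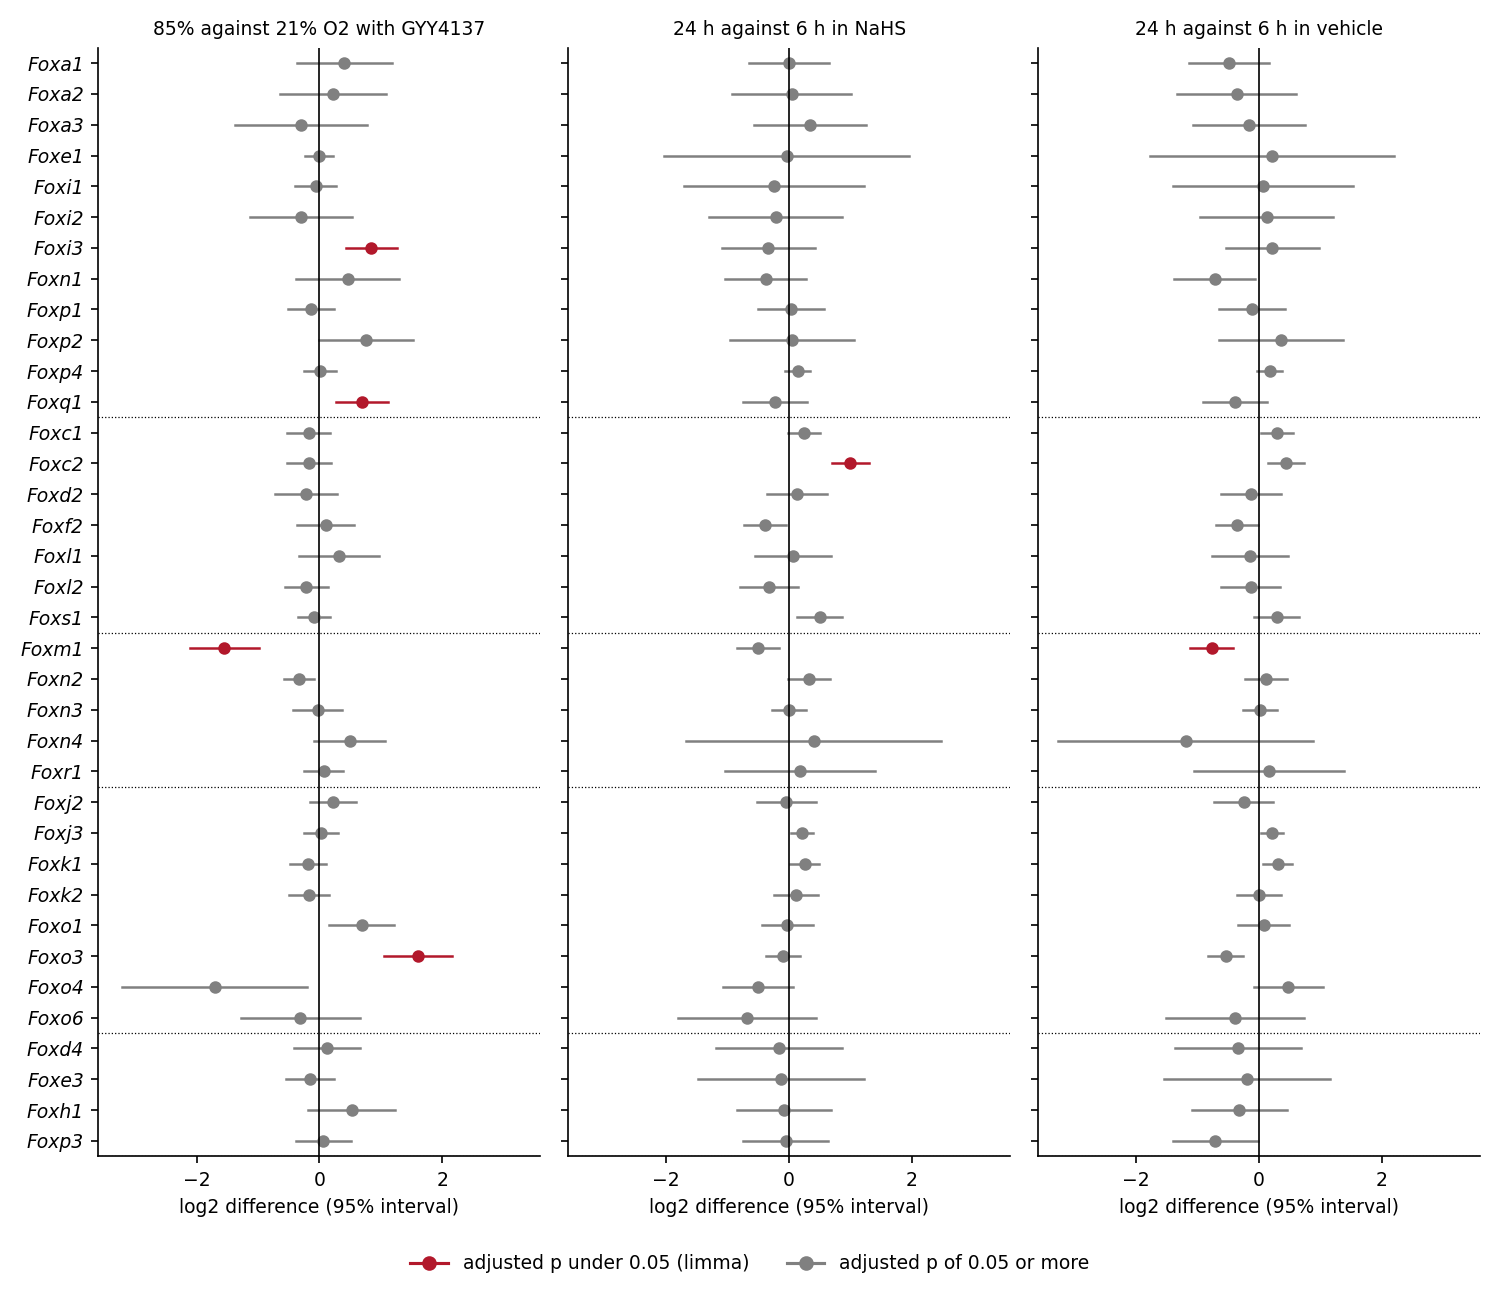
Log2 differences with 95% intervals of 36 of the 37 forkhead genes tested, for 85% against 21% O2 with GYY4137, 24 h against 6 h in NaHS and 24 h against 6 h in vehicle, with dotted lines between groups of role and called genes in red. Foxm1 at -1.55 and Foxo3 at 1.61 stand out for oxygen and Foxc2 at 1.0 for time in NaHS, while Foxe1, Foxi1, Foxn4 and Foxe3 have wide intervals in the NaHS experiment.

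Among the cell cycle genes, Foxm1 was low in 85% O2 and lower at 24 h than at 6 h in vehicle. Foxm1 codes for the activator of mitotic genes and is itself made in dividing cells. Its values were -0.70, -1.08, -0.38 and -0.41 with GYY4137 in 85% O2, against 1.23, 1.05, 1.06 and 0.27 with GYY4137 in 21% O2. All 4 arrays of 85% O2 lay below all 4 of 21% O2, and replicate 4 was the lowest of the 21% group. The difference was -1.55 ± 0.24 (SE; 95% interval -2.11 to -0.99; limma adjusted p = 0.0066).

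In the NaHS experiment, Foxm1 was 1.02, 0.72, 1.45 and 0.77 in NaHS at 24 h and 0.65, 0.69, 0.96 and 0.91 in vehicle at 24 h. At 6 h it was 1.54, 1.55, 1.37 and 1.53 in NaHS and 1.74, 1.23, 1.58 and 1.73 in vehicle. In vehicle every 24 h array lay below every 6 h array, whereas in NaHS replicate 3 at 24 h, at 1.45, stood above the lowest 6 h array. The time difference was -0.77 ± 0.16 in vehicle (95% interval -1.11 to -0.42; limma adjusted p = 0.0394), and -0.86 within slide 1 and -0.68 within slide 2. In NaHS it was -0.51 ± 0.16 (limma adjusted p = 0.339), and the difference between the 2 time differences, 0.26 ± 0.23, was not called (limma adjusted p = 0.99997). The vehicle call was lost when any single array was left out except vehicle replicate 2 at 6 h and NaHS replicates 2 and 3 at 24 h. In such bulk RNA, fewer dividing cells and less Foxm1 RNA per cell cannot be told apart.

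Foxm1 had 1 other probe, which covers a stretch with 1 reading frame free of stop codons and is shown because it bears on whether the oxygen difference holds for more than 1 place in the transcript. On mm9 it lies at chr6:128323866-128323925 on the plus strand, and the probe used above lies at chr6:128324783-128324842 on the same strand.
Foxm1: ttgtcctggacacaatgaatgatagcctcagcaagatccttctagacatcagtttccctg

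On this probe Foxm1 differed by -1.33 ± 0.20 in 85% against 21% O2 (limma adjusted p = 0.0065 in a fit of all probes). The time difference in vehicle was -0.81 ± 0.20 on this probe and was not called (limma adjusted p = 0.083). The probes had the same sign in both comparisons.

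Genes that FOXM1 is known to switch on were listed with earlier results in view, 24 genes of mitotic entry and chromosome segregation, of which 23 were tested. In 85% against 21% O2, 21 of 23 were called lower, against 6.36% of all genes tested, and 0 of 23 differences were positive, with a median of -2.08. The 4 with the smallest p were Cdk1 (-2.37 ± 0.20, limma adjusted p = 0.0011), the kinase that starts mitosis, the cyclins Ccna2 (-2.81) and Ccnb2 (-2.28), and the spindle protein Tpx2 (-1.84). The summed signal of the list was 46.2 to 62.7 times the 75th percentile in 85% O2 and 126 to 223 times in 21% O2.

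For 24 h against 6 h in vehicle, 10 of these 23 genes were called lower, against 0.475% of all genes tested, with a median of -0.71, and 16 were called lower with the replicate number as a block. The 4 with the smallest p were the phosphatase Cdc25c (-0.81), the centrosome kinase Nek2 (-0.79), the mitotic kinesin Kif20a (-0.72) and the checkpoint kinase Bub1b (-0.75). In NaHS 0 of 23 were called for time by limma with or without a block, 0 differences were positive and the median was -0.34. NaHS against vehicle had 22 of 23 positive at 24 h (median 0.24) and 4 of 23 at 6 h (median -0.09), with 0 called at either time.

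**Figure D3:**
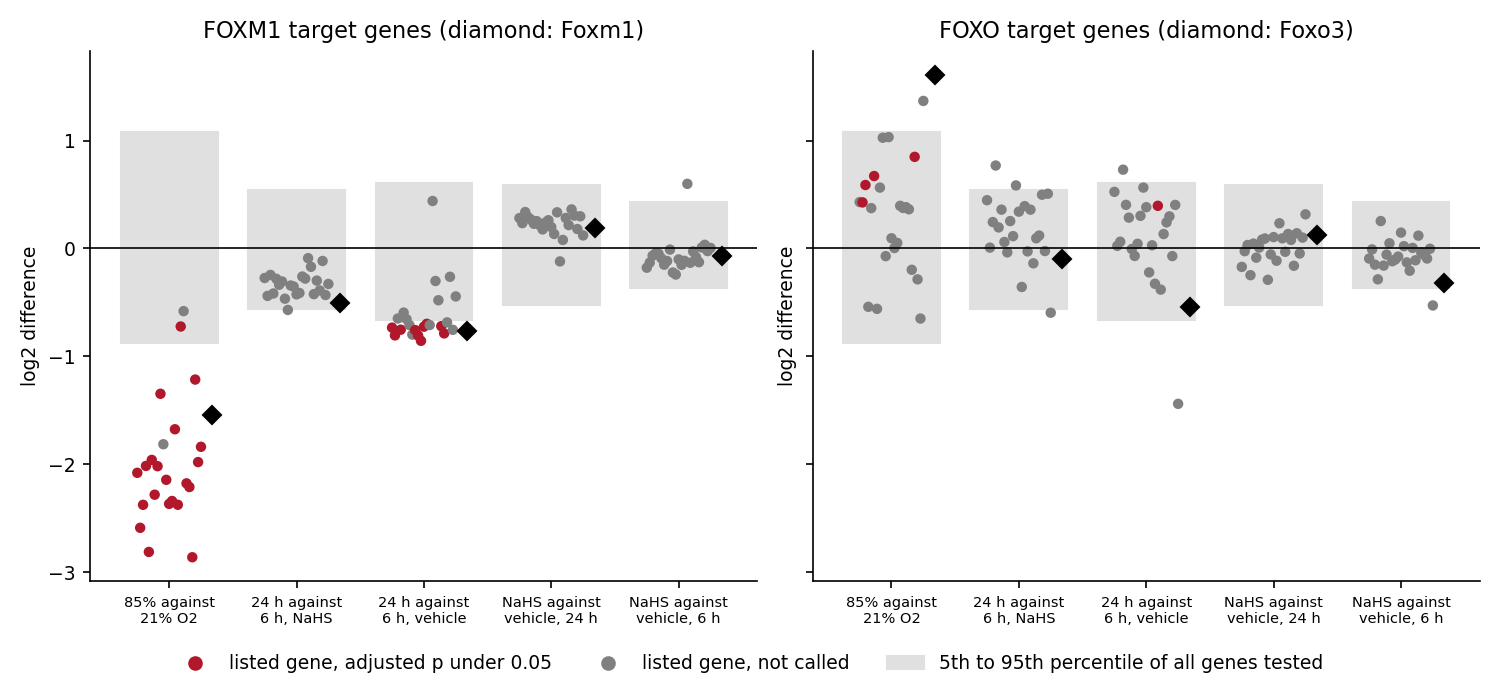
Log2 differences of genes that FOXM1 (left) and FOXO proteins (right) are known to regulate, 1 dot per gene, in 5 comparisons, with the factor's own gene as a black diamond, called genes in red and the range from the 5th to the 95th percentile of all genes tested in grey. For oxygen, 21 of 23 FOXM1 target genes are red and below 0, with a median of -2.08, while 4 of 23 FOXO target genes are red and above 0.

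The other genes of the cell cycle group did not pass the test. Foxn2, a relative of the checkpoint regulator Foxn3, was -0.23 ± 0.07 in 85% O2 and 0.11 ± 0.13 in 21% O2 (SD, n = 4 each). Its groups did not overlap, but limma gave an adjusted p of 0.0638. The gene's other probe was dim, at -4.84 in 85% O2 and -5.03 in 21% O2, and above background on 8 of the 24 arrays. Its difference of 0.19 ± 0.50 (SE) is too imprecise to bear on the sign. Foxn3 was 1.52 ± 0.25 in 85% O2 and 1.55 ± 0.25 in 21% O2. It averaged between 0.92 and 1.07 in the 4 groups of the NaHS experiment, and no comparison of it was called. Foxn4 was above background on 2 of 4 arrays of NaHS at 24 h, both on slide 2, and 0 of 4 of vehicle at 24 h, and the difference was not called (95% interval -0.55 to 3.61). Foxr1 was above background on 12 of the 16 arrays of that experiment.

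Among the genes of insulin and stress signalling, Foxo3 was high in 85% O2. Foxo3 codes for a FOXO factor that answers oxidative stress and loss of growth factor signals. It was at -0.89, -0.79, 0.03 and 0.05 with GYY4137 in 85% O2, against -1.87, -2.16, -1.92 and -2.08 with GYY4137 in 21% O2. Every 85% O2 array lay above every 21% O2 array, and replicates 3 and 4 of 85% O2 stood higher than replicates 1 and 2. The difference was 1.61 ± 0.24 (95% interval 1.06 to 2.16; limma adjusted p = 0.0055).

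The Foxo3 probe matters here because its size was not matched by the gene's other probe. The probe lies at chr10:41967288-41967347 on the minus strand of mm9, 61618 bases upstream of the other one in the direction of transcription, and carries the accession of a cDNA clone that was not matched in RefSeq. Its 3′ end, in capitals, is a run of 26 bases made only of T and G.
Foxo3: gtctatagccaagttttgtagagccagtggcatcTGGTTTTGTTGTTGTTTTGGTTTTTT

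On the other Foxo3 probe the difference was 0.42 ± 0.18, in the same direction but not called (limma adjusted p = 0.136 in a fit of all probes). Which transcripts each probe binds was not tested.

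In the NaHS experiment Foxo3 was -2.51, -2.22, -2.60 and -2.16 in NaHS at 24 h, and -2.72, -2.47, -2.56 and -2.23 in vehicle at 24 h. At 6 h it was -2.43, -2.29, -2.24 and -2.11 in NaHS and -1.99, -1.91, -1.81 and -2.10 in vehicle. All NaHS arrays at 6 h lay below all vehicle arrays at 6 h, the 1 forkhead gene of 37 whose groups did not overlap, against 0.615% of all genes tested. The difference was -0.32 ± 0.13 and was not called (limma unadjusted p = 0.0287, adjusted p = 0.99997), and the other probe gave -0.36. For 24 h against 6 h in vehicle the groups did not overlap and the difference was -0.54 ± 0.13 (limma adjusted p = 0.0637), which passed with the replicate number as a block (adjusted p = 0.0284).

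Foxo1, the insulin-controlled relative of Foxo3, was 2.28 ± 0.20 in 85% O2 and 1.60 ± 0.46 in 21% O2 (SD, n = 4 each). The difference of 0.69 ± 0.23 was not called (limma adjusted p = 0.0720), and the gene's other probe gave 0.26. Foxo4 was above background on 1 of 4 arrays in 85% O2 and 4 of 4 in 21% O2. Its values were -4.68, -5.41, -5.35 and -5.95 in 85% O2 and -1.61, -4.81, -3.61 and -4.54 in 21% O2, so replicate 1 of 21% O2 stood highest and the groups overlapped. The difference of -1.71 ± 0.66 was not called (limma adjusted p = 0.106), but passed with the replicate number as a block (adjusted p = 0.0435), which brought the calls to 5 of 37 against 17.3% of all genes. Another Foxo4 probe gave -1.31 ± 0.35 and did pass (limma adjusted p = 0.0398 in a fit of all probes). On mm9 that probe lies at chrX:98454966-98455025 and the probe used at chrX:98454974-98455033. The probes overlap over most of their length, so they do not measure separate places in the transcript. The other probe was above background on 13 of the 24 arrays. Foxo6 ranged widely among replicates, with SDs from 0.21 to 1.2.

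At 6 h, Foxo4 was -4.98, -4.40, -4.64 and -4.12 in NaHS against -5.06, -5.34, -4.79 and -5.33 in vehicle. The groups overlapped through replicate 1 of NaHS and replicate 3 of vehicle, and the difference of 0.60 ± 0.26 was not called (limma unadjusted p = 0.0400). The NaHS effect on Foxo4 at 24 h minus that at 6 h was -0.99 ± 0.37, and on Foxo3 0.44 ± 0.18. Neither was called. The 3 Foxo4 probes differed in sign for NaHS against vehicle at 6 h, with differences from -0.57 to 0.60.

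Foxj3, a factor of mitochondrial gene control in muscle, and Foxk1 and Foxk2, which act on autophagy and glucose use, varied little. For 24 h against 6 h, Foxj3 differed by 0.22 ± 0.08 in NaHS and 0.22 ± 0.08 in vehicle, and Foxk1 by 0.25 ± 0.11 in NaHS and 0.31 ± 0.11 in vehicle. Foxk1 passed in vehicle only in the fit with the slide as a block (limma adjusted p = 0.0462). Foxk2 averaged between 2.46 and 2.67 in all 6 groups. Foxj2 was -3.04, -2.96, -3.16 and -2.24 in NaHS at 24 h and -3.80, -2.96, -3.06 and -3.11 in vehicle at 24 h, where replicate 4 of NaHS stood apart from the others, and the difference of 0.38 ± 0.22 was not called (limma unadjusted p = 0.107).

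Of 24 genes that FOXO proteins are known to regulate, listed with earlier results in view, 23 were tested. In 85% against 21% O2, 4 were called higher, against 10.7% of all genes tested, and 17 of 23 were positive with a median of 0.38. They were the stress protein Sesn3 (0.85 ± 0.15, limma adjusted p = 0.0099), the repressor Bcl6 (0.59), the death protein Bcl2l11 (0.43) and the cyclin Ccng2 (0.67), which slows the cell cycle. With the replicate number as a block, 3 were higher and 2 lower. In vehicle at 24 h against 6 h, the autophagy gene Map1lc3b was called higher (0.40 ± 0.09, limma adjusted p = 0.0434), 1 of 23 against 0.688% of all genes tested, and 16 were positive. In NaHS 17 were positive for time and 0 were called by limma. NaHS against vehicle called 0 by limma at either time, with medians of 0.03 at 24 h and -0.08 at 6 h.

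**Figure D4:**
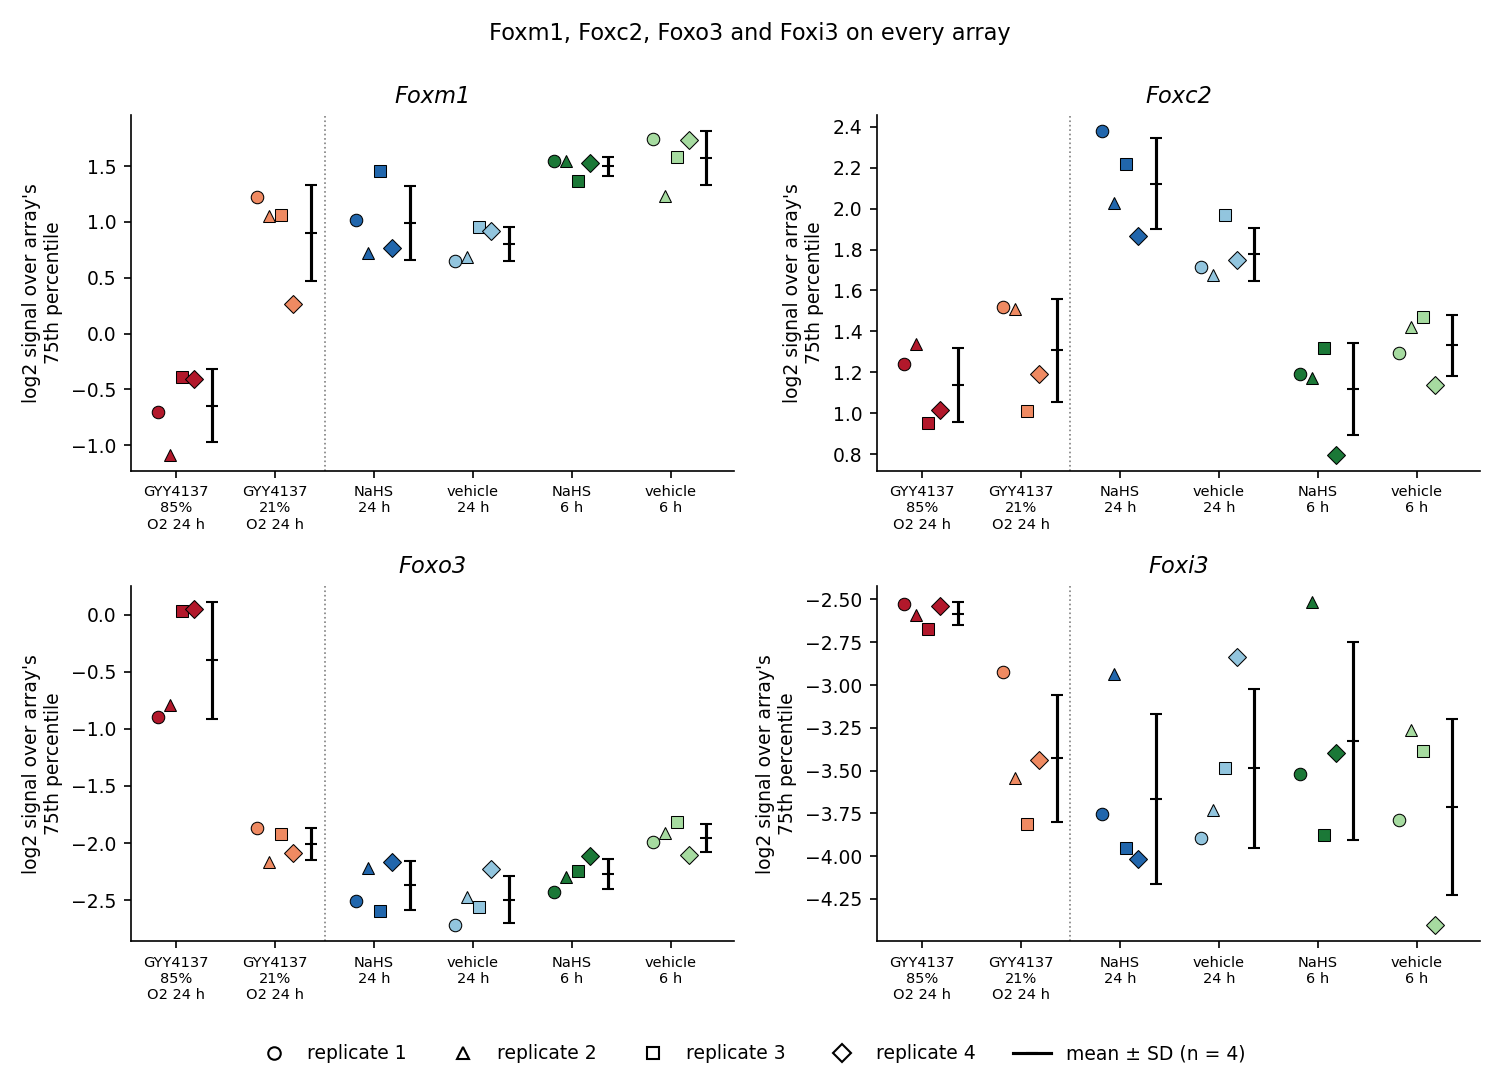
Log2 signal over the array's 75th percentile of Foxm1, Foxc2, Foxo3 and Foxi3 on each of the 24 arrays, 1 symbol per replicate, with the mean and SD (n = 4) as bars and a dotted line between the experiments. In 85% O2, Foxm1 lies between -1.08 and -0.38 and Foxo3 between -0.89 and 0.05, apart from the 21% O2 arrays, and Foxc2 lies between 1.87 and 2.38 in NaHS at 24 h.

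Among the genes of mesenchyme, vessel and pericyte, Foxc2 was the 1 called gene. Foxc2 codes for a factor of lymphatic and blood vessels and of mesenchyme. It was at 2.38, 2.03, 2.22 and 1.87 in NaHS at 24 h, against 1.19, 1.17, 1.32 and 0.80 in NaHS at 6 h. All 24 h arrays lay above all 6 h arrays, with replicate 4 the lowest at both times. The difference was 1.0 ± 0.14 (95% interval 0.71 to 1.29; limma adjusted p = 0.022), and 1.04 within slide 1 and 0.96 within slide 2. The call was lost when NaHS replicate 1, 2 or 4 at 6 h or NaHS replicate 1, 2 or 3 at 24 h was left out.

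In vehicle Foxc2 was 1.71, 1.68, 1.97 and 1.75 at 24 h against 1.29, 1.42, 1.47 and 1.14 at 6 h, again with no overlap. The difference of 0.44 ± 0.14 was not called (limma adjusted p = 0.147), but passed with the replicate number as a block (adjusted p = 0.0345). NaHS minus vehicle was 0.34 ± 0.14 at 24 h (limma unadjusted p = 0.0252) and -0.21 ± 0.14 at 6 h (unadjusted p = 0.146), with overlapping groups at both times. The 24 h effect minus the 6 h effect, which is also the NaHS time difference minus the vehicle one, was 0.56 ± 0.19 (95% interval 0.14 to 0.97; limma unadjusted p = 0.0128, adjusted p = 0.99997). It was 0.58 within slide 1 and 0.53 within slide 2, and it was not called.

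In the GYY4137 experiment Foxc2 was 1.24, 1.34, 0.96 and 1.02 in 85% O2 and 1.52, 1.51, 1.01 and 1.19 in 21% O2. The groups overlapped, and the difference of -0.17 ± 0.16 was not called (limma adjusted p = 0.476). The interval of the difference, -0.53 to 0.19, leaves out a 2-fold change in either direction.

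Foxc2 lies between Foxf1a and Foxl1 on mouse chromosome 8, with 30.7 kb from the Foxf1a probe to the Foxc2 probe and 11.6 kb from the Foxc2 probe to the Foxl1 probe. Foxf1a, the mesenchymal target of hedgehog signals, was 1.87, 2.72, 2.32 and 2.20 in NaHS at 24 h and 2.36, 2.66, 2.22 and 2.62 in vehicle at 24 h. At 6 h it was 2.47, 2.55, 2.66 and 2.13 in NaHS and 2.57, 2.70, 2.77 and 2.06 in vehicle. These groups all overlapped, and the time difference was -0.17 ± 0.20 in NaHS and -0.06 ± 0.20 in vehicle. With GYY4137 Foxf1a was 3.09, 2.88, 2.67 and 2.60 in 85% O2 and 3.27, 3.48, 2.76 and 2.70 in 21% O2, a difference of -0.24 ± 0.21 that was not called.

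Foxl1, a factor of the mesenchyme beneath epithelia, was -3.02, -2.75, -2.16 and -2.16 in NaHS at 24 h and -3.69, -2.37, -2.72 and -2.25 in vehicle at 24 h. It was -2.92, -2.49, -2.57 and -2.38 in NaHS at 6 h and -2.70, -2.46, -2.45 and -2.84 in vehicle at 6 h. Its time differences, 0.07 ± 0.29 in NaHS and -0.15 ± 0.29 in vehicle, were within the spread between replicates. With GYY4137 it was -1.95, -2.30, -2.32 and -2.12 in 85% O2 and -1.74, -2.22, -3.07 and -2.91 in 21% O2, where the groups overlapped. Neither neighbour of Foxc2 was called with it in NaHS.

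Foxq1, Foxf2 and Foxc1 lie together on chromosome 13, with 70.9 kb between the Foxq1 and Foxf2 probes and 179 kb between the Foxf2 and Foxc1 probes. Foxf2, a factor of lung and gut fibroblasts, was 1.26, 1.38, 1.52 and 1.49 in NaHS at 24 h, against 1.76, 1.95, 1.77 and 1.71 in NaHS at 6 h. These groups did not overlap, yet the difference of -0.39 ± 0.16 was not called (limma adjusted p = 0.528). In vehicle Foxf2 was 1.36, 1.23, 1.52 and 1.76 at 24 h and 2.01, 2.10, 1.82 and 1.32 at 6 h, with replicate 4 reversed against the others. With GYY4137 it was 2.16, 1.95, 2.05 and 2.16 in 85% O2 and 2.42, 2.13, 1.97 and 1.40 in 21% O2. The groups overlapped and the difference was 0.10 ± 0.21.

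Foxc1, the close relative of Foxc2 that acts in the same vessels and in pericytes, was -0.49, -0.35, -0.51 and -0.44 in NaHS at 24 h and -0.27, -0.25, -0.46 and -0.17 in vehicle at 24 h. At 6 h it was -0.54, -0.57, -0.73 and -0.92 in NaHS and -0.53, -0.33, -0.65 and -0.87 in vehicle. Its time differences of 0.24 ± 0.12 in NaHS and 0.30 ± 0.12 in vehicle had the sign of those of Foxc2 and were not called, although its NaHS groups did not overlap (limma adjusted p = 0.645 in NaHS and 0.288 in vehicle). In 85% O2 it was -0.51, -0.30, -0.64 and -0.89, against -0.64, -0.31, -0.26 and -0.42 in 21% O2. The difference of -0.18 ± 0.15 was within the spread between replicates.

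Foxs1, a forkhead gene of pericytes and neural crest, was 3.53 ± 0.19 in NaHS at 24 h and 3.03 ± 0.28 in NaHS at 6 h (SD, n = 4 each), with no overlap and a difference of 0.50 ± 0.17 that was not called (limma adjusted p = 0.396). In vehicle it was 3.34 ± 0.14 at 24 h and 3.05 ± 0.32 at 6 h. Foxd2 and the ovarian factor Foxl2 had no call. Foxd1, a factor of pericyte progenitors, was above background on 1 of the 16 arrays of the NaHS experiment and 1 of the 8 of the GYY4137 experiment, and was not tested.

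Foxl2 is best known from ovarian granulosa cells, so its signal above background on all arrays called for a look at its probes. Both probes are shown because they overlap by 12 bases, in capitals, and the probe used here has 81.7% G and C, a content reached by 25 of the 55681 probes or 0.0449%. The first lies at chr9:98856846-98856905 and the probe used here at chr9:98856894-98856950 on mm9, both on the plus strand.
Foxl2, other probe: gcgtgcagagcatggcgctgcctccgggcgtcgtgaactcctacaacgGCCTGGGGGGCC
Foxl2, probe used: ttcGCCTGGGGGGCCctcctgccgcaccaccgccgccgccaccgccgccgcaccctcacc

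In 85% against 21% O2 Foxl2 differed by -0.21 ± 0.16 on the probe used and by -0.28 ± 0.19 on the other, and neither was called. Over the 24 arrays the probe used averaged 5.82 and the other Foxl2 probe -2.42. The 25 probes with at least its G and C content had a median level of 0.74, against -3.69 for all probes. Whether the signal of the G and C rich probe comes from Foxl2 transcripts alone was not tested, so its level is not a measure of Foxl2 expression.

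A list of 25 other regulators of lung mesenchyme, chosen with earlier results in view, had 0 calls by limma in all 5 comparisons between groups, against 17.1% of all genes tested for oxygen, 0.0405% for time in NaHS and 1.16% for time in vehicle. For time in NaHS, 10 of 25 were positive (median -0.19) and the hedgehog effector Gli1 had the smallest p, with -1.79 ± 0.35 (limma adjusted p = 0.0888), and 1 of the 25 was called lower with the replicate number as a block and 1 with the slide as a block. For time in vehicle 9 were positive (median -0.10), and Meox2, a homeobox gene of mesoderm, differed by -2.04 ± 0.55. In 85% against 21% O2 4 were positive (median -0.25), and with the replicate number as a block 3 were lower. NaHS against vehicle had 11 positive at 24 h and 9 at 6 h.

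Markers of mesenchyme and of other cells moved in some of the same comparisons. Fibroblast markers were positive for time in 7 of 12 genes in vehicle (median 0.13) and 5 of 12 in NaHS (median -0.14). Smooth muscle markers were positive in 9 of 10 in vehicle (median 0.65) and 8 of 10 in NaHS (median 0.59). Macrophage markers were positive in 9 of 10 in vehicle (median 0.91) and 8 of 10 in NaHS (median 0.61). Endothelial markers were positive in 7 of 9 in vehicle (median 0.65) and 7 of 9 in NaHS (median 0.26). Ciliated cell markers were positive in 0 of 10 in vehicle (median -0.63) and 2 of 10 in NaHS (median -0.36). Of type II markers 3 of 11 were positive in vehicle and 4 of 11 in NaHS, and of type I markers 4 of 10 in both. For basal cells these were 1 of 6 and 0 of 6, and for lymphocytes 5 of 8 and 2 of 8. At 24 h against 6 h in vehicle, the smooth muscle and pericyte receptor Notch3 was called higher by 1.24 and the fibroblast surface protein Thy1 by 1.16. There 0.688% of all genes tested were called higher. In NaHS the macrophage complement gene C1qa was called higher by 2.26, against 0.0331% of all genes. C1qa was above background on no array of NaHS at 6 h or of either vehicle group. It therefore passed the filter only through NaHS at 24 h, where it was high. The summed signal of 10 smooth muscle markers was 888 to 1239 times the 75th percentile in NaHS at 24 h and 743 to 1132 times in NaHS at 6 h, and that of 11 fibroblast markers was 648 to 1006 and 695 to 985 times. The smooth muscle sums in vehicle were 1223 to 1379 at 24 h and 664 to 1210 at 6 h. Club cell markers were positive for time in 1 of 8 genes in NaHS (median -0.57) and 0 of 8 in vehicle (median -2.10), where the secretoglobin Scgb3a1 was called lower. Their summed signal was 5.97 to 33.2 in NaHS at 24 h and 28.7 to 67.2 in NaHS at 6 h, and 4.07 to 20.5 in vehicle at 24 h and 26.7 to 201 in vehicle at 6 h. The part of these cells in the Foxc2 and Foxm1 differences was not tested.

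Among the epithelial genes, Foxq1 and Foxi3 were called higher in 85% O2, and Foxa1 and Foxa2 in 0 comparisons. Foxq1 codes for a forkhead factor of epithelia and of hair. It was at 2.41, 2.59, 2.96 and 2.96 with GYY4137 in 85% O2, against 2.01, 1.89, 1.82 and 2.44 with GYY4137 in 21% O2. Replicate 4 of 21% O2 reached just above replicate 1 of 85% O2, so the groups overlapped at that point. The difference was 0.69 ± 0.19 (95% interval 0.27 to 1.12; limma adjusted p = 0.0384). It was lost when replicate 1, 2 or 3 of 21% O2 or replicate 3 or 4 of 85% O2 was left out, with each array centred on its median, and without a filter on dim probes.

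In the NaHS experiment Foxq1 was 2.99, 2.43, 2.96 and 2.85 in NaHS at 24 h and 3.06, 1.93, 3.04 and 2.71 in vehicle at 24 h. At 6 h it was 3.39, 2.69, 3.21 and 2.89 in NaHS and 3.35, 2.80, 3.06 and 3.08 in vehicle. The time differences, -0.23 ± 0.24 in NaHS and -0.39 ± 0.24 in vehicle, were within the spread between replicates, and replicate 2 was lowest in each of these groups.

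Foxi3, a gene of ectoderm whose relative Foxi1 marks ionocytes, was -2.53, -2.59, -2.67 and -2.54 with GYY4137 in 85% O2, against -2.92, -3.55, -3.81 and -3.44 with GYY4137 in 21% O2. The groups did not overlap, the 85% O2 arrays lay close together, and the difference was 0.85 ± 0.18 (95% interval 0.43 to 1.26; limma adjusted p = 0.0186). It was lost without replicate 2 of 21% O2 or without replicate 3 or 4 of 85% O2. In the NaHS experiment it averaged between -3.71 and -3.33 with SDs from 0.46 to 0.58, and no comparison there was called. The Foxi3 probe lies at chr6:70910998-70911057 on the plus strand of mm9 and is shown because it is the gene's 1 probe for this call. Its last 3 bases, in capitals, read as a stop codon.
Foxi3: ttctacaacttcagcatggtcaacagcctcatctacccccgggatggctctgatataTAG

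Some markers of other cells were called in the same oxygen comparison, in which 17.1% of all genes were. The ciliated cell genes Foxj1 and Tppp3 were higher in 85% O2 by 1.46 and 0.77, the airway gene Bpifa1 by 1.58 and the basal cell gene Ngfr by 0.57, while the type I cell gene Rtkn2 fell by 0.84. Of the other marker genes, the endothelial Tek rose by 1.17 and Notch3 by 1.36, and Thy1 fell by 1.05 and the muscle gene Des by 1.29. Over the whole lists, 5 of 9 ciliated, 4 of 7 club and 3 of 6 basal cell markers were positive. So were 4 of 10 of type I cells, 5 of 10 of type II cells and 5 of 7 of endothelium. For fibroblasts it was 1 of 12, for smooth muscle 2 of 10, for lymphocytes 5 of 8 and for macrophages 9 of 11. The summed macrophage signal on replicates 1 to 4 was 8.12, 8.53, 18.3 and 17.0 times the 75th percentile in 85% O2. In 21% O2 it was 7.34 to 11.9 times. The summed signal of the type II markers was 37.0 to 47.8 times the 75th percentile in 85% O2 and 46.2 to 67.6 times in 21% O2. The part of these cells in the forkhead differences was not tested.

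Foxa1 and Foxa2 code for the pioneer factors of the lung epithelium. With GYY4137 Foxa1 was 2.02, 2.26, 2.40 and 3.17 in 85% O2 and 2.22, 1.57, 1.62 and 2.82 in 21% O2. Foxa2 was 1.71, 1.71, 2.55 and 2.86 in 85% O2 and 1.74, 1.27, 2.19 and 2.76 in 21% O2. Replicate 4 was the highest array of both groups for both genes. The oxygen differences were 0.40 ± 0.34 for Foxa1 and 0.22 ± 0.38 for Foxa2, and neither was called (limma adjusted p = 0.427 for Foxa1 and 0.711 for Foxa2).

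In the NaHS experiment Foxa1 was 3.03, 3.12, 3.19 and 2.89 in NaHS at 24 h and 3.24, 1.55, 3.18 and 2.70 in vehicle at 24 h. At 6 h it was 2.99, 2.88, 3.03 and 3.32 in NaHS and 3.15, 2.94, 2.90 and 3.62 in vehicle. The wide spread of vehicle at 24 h came from replicate 2, the lowest of the 16 arrays. Foxa2 was 2.43, 2.50, 3.07 and 2.75 in NaHS at 24 h and 2.80, 1.28, 2.95 and 2.12 in vehicle at 24 h. At 6 h Foxa2 was 2.13, 2.56, 2.21 and 3.67 in NaHS and 2.52, 2.09, 2.22 and 3.76 in vehicle. Replicate 4 was high in both 6 h groups and replicate 2 low in vehicle at 24 h.

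Replicate 4 of both 6 h groups also stood high in the type II markers. Their summed signal was 162 times the 75th percentile in replicate 4 of NaHS at 6 h against 60.1 to 76.1 on the other arrays of that group, and 115 in replicate 4 of vehicle at 6 h against 58.6 to 68.1. In vehicle at 24 h replicate 2 was lowest, at 46.9 against 52.3 to 71.8, a gap smaller than the spread of the other arrays. The club cell sum was 201 in replicate 4 of vehicle at 6 h against 26.7 to 75.2 on the others of that group. The part of type II and club cells in the Foxa1 and Foxa2 values was not tested. NaHS minus vehicle at 24 h was 0.39 ± 0.30 for Foxa1 and 0.40 ± 0.45 for Foxa2, and at 6 h -0.10 ± 0.30 for Foxa1 and 0.00 ± 0.45 for Foxa2.

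**Figure D5:**
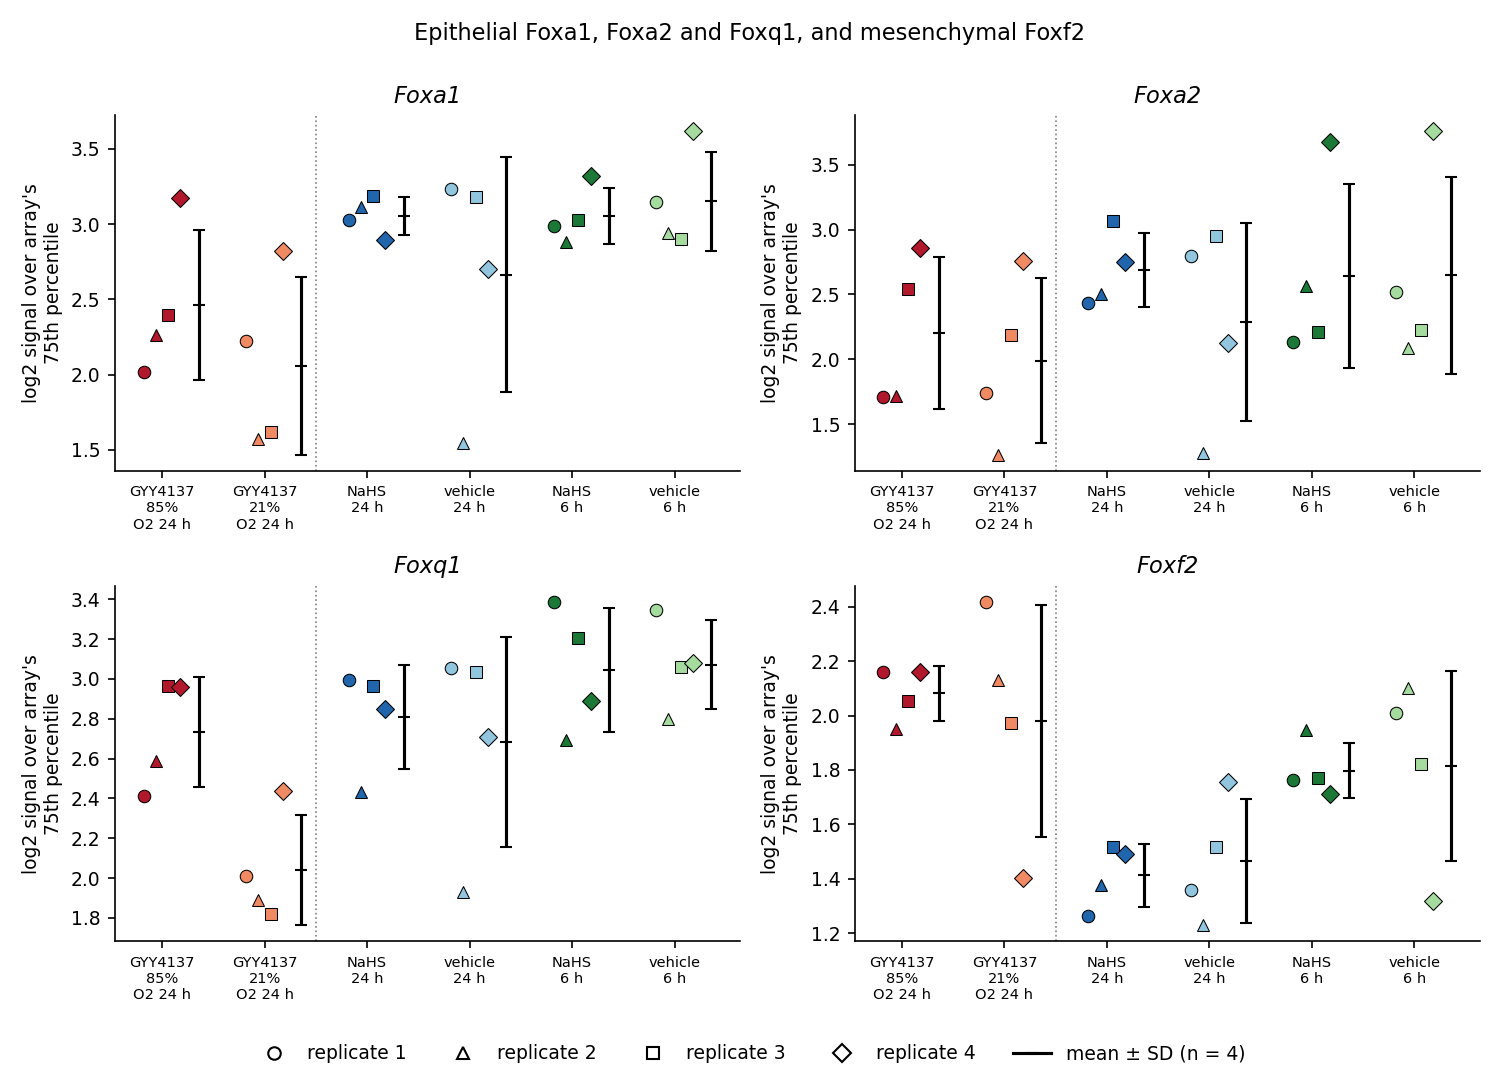
Log2 signal over the array's 75th percentile of Foxa1, Foxa2, Foxq1 and Foxf2 on each of the 24 arrays, 1 symbol per replicate, with the mean and SD (n = 4) as bars. Replicate 2 of vehicle at 24 h is the low array for Foxa1 at 1.55, Foxa2 at 1.28 and Foxq1 at 1.93, and replicate 4 is the high array for Foxa2 in both 6 h groups.

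Of 22 partners and targets of FOXA factors in lung epithelium, listed with earlier results in view, 1 gene was called in each of 2 comparisons. The lamellar body gene Lamp3 fell by 1.04 in 85% against 21% O2, 1 of 21 against 6.36% of all genes tested called lower and 10.7% higher, and 13 of the 21 were positive (median 0.21). With the replicate number as a block, 2 were higher and 1 lower. The surfactant gene Sftpa1 fell by 3.14 at 24 h against 6 h in vehicle (limma adjusted p = 0.0181), 1 of 22 against 0.475% of all genes tested called lower. There 6 of 22 were positive (median -0.21), and with the replicate number as a block 3 were lower. In NaHS Sftpa1 differed by -2.36 ± 0.51 for time and was not called (limma adjusted p = 0.138), with 10 of 22 positive, and with the replicate number as a block 1 gene was lower. NaHS against vehicle had 17 of 22 positive at 24 h (median 0.30) and 11 at 6 h (median 0.03), with 0 called by limma at either time.

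Foxp1 and Foxp4, repressors that act together in airway epithelium, were above background on all arrays. Foxp1 was 5.21 ± 0.27 in 85% O2 and 5.34 ± 0.20 in 21% O2, and Foxp4 was 4.18 ± 0.17 in 85% O2 and 4.18 ± 0.05 in 21% O2 (SD, n = 4 each). Foxp4 averaged between 4.04 and 4.26 in the 4 groups of the NaHS experiment, and its time differences were 0.14 ± 0.09 in NaHS and 0.18 ± 0.09 in vehicle. Foxa3, the liver member of the Foxa genes, and the thymus and skin gene Foxn1 were called in no comparison, with Foxn1 differing by -0.72 ± 0.31 at 24 h against 6 h in vehicle (limma adjusted p = 0.343). The Foxp relative Foxp2 was above background on 5 of 16 arrays in the NaHS experiment and on 8 of 8 in the other. In 85% against 21% O2 it differed by 0.76 ± 0.33 and was not called (limma adjusted p = 0.147). Probes of the same gene differed in sign there. The differences ran from -0.425 to 1.06 over 4 probes that either array design names Foxp2, and from -0.24 to 0.52 over 5 probes of Foxp1, with 0 called.

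More forkhead genes were called between slides 2 and 1 of the NaHS experiment than between any of its groups. Slide 2 carried replicates 2 and 4 of each group and slide 1 replicates 1 and 3, so the slide and these sets of replicates cannot be told apart. With group in the fit, 22 of 37 genes were called between slide 2 and slide 1, 11 higher and 11 lower, against 48.1% of all genes tested. The 7 largest differences were positive, in Foxn4 (2.20), Foxe1 (2.19), Foxi1 (1.70), Foxe3 (1.54), Foxr1 (1.39), Foxi2 (1.14) and Foxd4 (1.12), while Foxn1 (-0.55) and Foxp1 (-0.53) were lower on slide 2. Foxi1, the gene of ionocytes, was spread widely in the NaHS experiment, with SDs from 0.82 to 1.23, while with GYY4137 its SD was 0.14 in 85% O2 and 0.24 in 21% O2.

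The genes of embryo, nerve and immune cells were called in none of the 5 comparisons between groups. Foxp3, the master factor of regulatory T cells, was -3.23, -1.78, -2.73 and -2.76 in NaHS at 24 h and -3.32, -3.45, -2.80 and -3.25 in vehicle at 24 h. Replicate 2 of NaHS stood highest, the groups overlapped, and the difference of 0.58 ± 0.32 was not called (limma unadjusted p = 0.0955). Of 10 lymphocyte markers, 4 or 5 were above background on all 4 arrays of each group of the NaHS experiment, and Cd3d and Il7r on none of its arrays. Foxh1, a partner of SMAD proteins in the embryo, was -2.58 ± 0.37 in 85% O2 and -3.10 ± 0.60 in 21% O2 (SD, n = 4 each), a difference of 0.53 ± 0.31 that was not called. Foxb1, Foxb2, Foxd1, Foxd3 and Foxr2 were the 5 genes too dim to be tested.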

How the data were processed

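Intensity values were deposited as scanner output. Per the file headers, the software Feature Extraction (10.7.3.1) had subtracted the background, and no scaling across arrays was applied. Log2 values from a deposited table of the whole series served as an alternative, and their normalization is not given in the sources used here. From each array's log2 processed signal its 75th percentile was subtracted, spots marked uneven or as outliers were left out, and repeated spots were averaged. A gene was tested where at least 4 arrays of the experiment lay well above background, 27176 genes in the NaHS and 27945 in the GYY4137 experiment. Each experiment was fitted separately with limma 3.58.1 in R 4.3.3 with the package data.table (version 1.17.8), with a mean per group and Benjamini-Hochberg adjustment over all genes at 0.05. Python 3.11.15, numpy 2.4.6, pandas 2.3.3 and matplotlib 3.10.9 made tables and figures. No array had a saturated spot, and the number of arrays limits the precision. Sums of marker signals add the signals of genes measured on all 24 arrays. Gene names are those of the newer array design, and probe coordinates are on mm9. The accessions of 41 of 42 members matched the same symbol in RefSeq.

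The values of 1 member, which is counted throughout, are not reported here. The members and lists were chosen with earlier results of these data known. Values on every array were given for Foxc2, Foxm1, Foxa1, Foxa2, Foxf1a, Foxc1, Foxf2, Foxl1 and called members, for the 3 members of smallest p where none was called, and up to 4 genes of each list by p were named. Arrays with the same replicate number deviated together from their group means. Correlations were above 0.1 in 24 of 24 pairs of the NaHS experiment (0.53 to 0.78), where 24 other pairs on a shared slide gave 0.41 to 0.71. In the GYY4137 experiment they were above 0.1 in 4 of 4 pairs (0.19 to 0.30). The main fit had no block, so its p-values and intervals do not use this pairing. Fits with the replicate number as a block were run as alternatives. Alternatives were other normalizations and background corrections, other filters, the deposited values, slide or replicate blocks, values within slides and leaving out each array. In simulated data, 47% of changes of 1 log2 unit and 70% of changes of 2 were recovered for 24 h against 6 h in vehicle, and 45% and 85% for oxygen. The simulated noise was independent between arrays, without the shared deviations by slide and replicate number. Only 100 genes per size of change were altered, of 27106 for vehicle and 27941 for oxygen. On the real arrays 17.1% of genes were called for oxygen, so the adjustment for many genes worked under another setting there. These rates therefore need not hold for the real arrays.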

Additional observations from a re-analysis of the deposited data

Results flagged for a closer look

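Among 84 groups of 4 arrays examined for 14 named genes, 1 value stood far from the others of its group. Foxm1 in replicate 3 of NaHS at 6 h was 1.37, below the other 3 arrays of that group at 1.53 to 1.55, and its gap to the nearest of them was 0.905 of the group's range, above Dixon's 95% critical value for 4 arrays. Chance alone marks about 1 in 20 such groups, and the group's SD of 0.09 is the smallest of the 6 groups for this gene.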

How the results depend on the processing

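The number of forkhead genes called moved most for time in culture. For 24 h against 6 h in vehicle, where 1 was called, limma called 0 with each array centred on its median, without a filter on dim probes, within slide 1, within slide 2 and when only these 2 groups were fitted, 2 with normexp background correction and with a filter on 4 arrays of 1 group, 3 with the replicate block and 4 with the slide block, and 0 to 1 when single arrays were left out. Over all genes the count of 316 became 1 with median centring, 574 with normexp, 129 without a filter, 509 with the filter on 1 group, 1057 with the replicate block, 871 with the slide block, 0 and 1 within slides 1 and 2, 0 with only these groups, and 5 to 405 without single arrays. For 24 h against 6 h in NaHS, where 1 was called, 0 were called with median centring, within either slide and with only these groups, and 0 to 1 without single arrays. Over all genes the count of 11 became 2 with quantile normalization and with the deposited values, 0 with median centring, 44 with normexp, 7 without a filter, 25 with the filter on 1 group, 57 with the replicate block, 47 with the slide block, 1 and 0 within slides 1 and 2, 0 with only these groups, and 0 to 12 without single arrays. For oxygen the 4 calls became 2 to 4, and the 4765 over all genes 2017 to 5526, when single arrays were left out. Median centring moved the oxygen split over all genes to 1670 higher and 3160 lower, against 2988 and 1777, and that of the forkhead genes to 2 higher and 2 lower, with the median of all genes at -0.09.

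Foxm1 and Foxo3 in 85% against 21% O2 kept direction and call in 16 of 16 alternatives, from -1.76 to -1.40 for Foxm1 and from 1.02 to 1.77 for Foxo3. A gene's other probe entered these alternatives only through the mean of all its probes. On its own the other probe was called for Foxm1 but not for Foxo3, as given above. Foxi3 kept its call in 13 and Foxq1 in 9 of 16, Foxc2 for time in NaHS in 18 of 28 (0.89 to 1.09) and Foxm1 for time in vehicle in 10 of 28 (-0.88 to -0.68). The sign turned in 1 case, Foxo4 for NaHS against vehicle at 6 h, at -0.0029 with normexp against 0.60. The replicate block changed no other call of a forkhead gene than those given above. The causes of these changes were not tested. Intervals of genes such as Foxe1, Foxi1 and Foxe3 reached past 2-fold in both directions in the 4 comparisons between groups of the NaHS experiment. In addition, 5 dim members could not be tested.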
